A study of Mus musculus with 8 samples.

Results

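The genes described here are 40 genes of mitosis and the spindle, chosen by name from the gene expression table of a mouse skin study, and all 40 were among its 21885 named genes. They were measured in 8 RNA sequencing libraries of skin: 4 from skin given MC903, the submitters' control group, and 4 from skin given MC903 together with phytic acid. MC903 is calcipotriol, a vitamin D analogue used on mouse skin to set off an inflammation that resembles atopic dermatitis and that thickens the epidermis; phytic acid is inositol hexaphosphate, found in plant seeds. Both groups carry MC903 and no untreated skin is among them, so a difference is the one between MC903 with and MC903 without phytic acid. The sources used here give no mouse strain, age, sex, dose or time of treatment. The labels number the replicates 1 to 4 without saying that each came from its own mouse, so the p-values rest on variation among these libraries, which may be technical. Keratinocytes were plainly present: 12 basal keratinocyte markers summed to between 2661 and 8030 FPKM per library. FPKM, the deposited unit, counts fragments relative to exon length and to the fragments of the whole library. Whole reads could be recovered from it, and the library totals were 31676934 to 42997271 reads, with 193 to 10849 reads behind each value of a member.

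A cell enters mitosis when cyclin A and cyclin B switch on the kinase CDK1, helped by the CDC25 phosphatases and by the kinases PLK1 and Aurora A. Motor proteins then build the spindle, kinetochores tie the chromosomes to it, and the spindle checkpoint holds back the anaphase-promoting complex, a ubiquitin ligase, until every chromosome is attached. The complex then marks cyclin B and securin for destruction, the chromatids part and the cell divides. Most of these genes are switched on together late in the cell cycle. The repressor complex DREAM, and the activators B-MYB and FOXM1, reach many of their promoters through an element called CHR (cell cycle genes homology region), and the factor NF-Y through CCAAT boxes. In skin the dividing cells are mainly basal keratinocytes and, during hair growth, the matrix of the follicle. In bulk tissue, fewer dividing cells and less RNA per dividing cell cannot be told apart.

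The promoters are shown because the members share them as a feature that did not enter the choice. RefSeq windows on GRCm38.p6, from 250 bases before to 50 after the start of the gene, were matched by symbol for 33 members; those of Aurkb, Ccna2, Cdc25c, Foxm1, Incenp, Kif20a and Tpx2 were not matched. The lines below give the 150 bases before the start, 5′ to 3′ along the gene, for 3 genes that fell with phytic acid and hold both elements (Cdk1, Ube2c, Cdc20), for the proliferation markers Top2a and Mki67, and for Birc5, which fell and holds neither. Capitals mark CHR words (TTTGAA or TTCGAA) and CCAAT boxes, each on either strand, so that TTCAAA and ATTGG are the same words read on the other strand.
Cdk1, chr10:69352913-69353062, minus strand: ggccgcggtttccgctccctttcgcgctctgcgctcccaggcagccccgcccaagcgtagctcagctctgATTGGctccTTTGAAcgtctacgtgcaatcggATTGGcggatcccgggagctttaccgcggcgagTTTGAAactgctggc
Ube2c, chr2:164769779-164769928, plus strand: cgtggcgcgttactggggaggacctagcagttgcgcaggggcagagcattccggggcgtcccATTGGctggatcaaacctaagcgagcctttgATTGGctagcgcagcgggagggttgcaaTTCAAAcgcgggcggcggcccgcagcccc
Cdc20, chr4:118437344-118437493, minus strand: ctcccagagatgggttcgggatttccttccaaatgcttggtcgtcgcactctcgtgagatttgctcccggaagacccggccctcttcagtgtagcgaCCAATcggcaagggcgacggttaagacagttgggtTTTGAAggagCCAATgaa
Top2a, chr11:99024190-99024339, minus strand: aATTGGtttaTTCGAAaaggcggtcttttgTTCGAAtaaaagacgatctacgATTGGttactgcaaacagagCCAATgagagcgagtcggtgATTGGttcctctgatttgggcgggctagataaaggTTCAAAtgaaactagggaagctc
Mki67, chr7:135716380-135716529, minus strand: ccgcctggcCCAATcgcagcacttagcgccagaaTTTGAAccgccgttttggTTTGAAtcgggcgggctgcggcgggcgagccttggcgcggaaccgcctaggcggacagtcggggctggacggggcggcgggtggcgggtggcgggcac
Birc5, chr11:117849087-117849236, plus strand: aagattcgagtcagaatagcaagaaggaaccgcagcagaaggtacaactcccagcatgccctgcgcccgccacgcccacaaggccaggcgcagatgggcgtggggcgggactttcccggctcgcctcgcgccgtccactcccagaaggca

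A CHR word lay in the 300-base window of 26 of the 33 members (78.8%). The share was 21.7% over all 27025 genes with such a window and 16.8% over the 9660 of them that were tested for expression. Of the 26 members, 13 had a CHR word before the start and 13 had it only after or across the start, and in 23 it lay within 60 bases of the start. In Cdk1 it began 71 and 15 bases before the start, in Cdc20 18 bases before and in Ube2c 29 bases before. CCAAT boxes were found in 25 of 33 (75.8%), against 41.1% of all windows, and 16 members had at least 2 boxes (48.5% against 13.3%). The TTTCCCGC, TTTGGCGC, TTTGCCGC and TTTCGCGC forms of the E2F site, typical of genes of DNA synthesis, were found on either strand in 1 of 33 members (3.03%), Cdk1, and in 2.60% of all windows. In a list of DNA replication genes the order was the other way round: 18 of 44 held an E2F word (40.9%) and 10 of 44 a CHR word (22.7%). CCAAT boxes were frequent in the replication genes as well: 63.6% held at least 1 and 43.2% at least 2. In the other mitosis lists, here without that of the anaphase-promoting complex core, 55.7% of 88 genes held a CHR word and 62.5% a CCAAT box. A match is a run of letters and says nothing of binding in this skin. The CHR word was present in 6 of the 8 matched members that fell and in 20 of the 25 that were not called, shares of 75% and 80%.

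**Figure D1:**
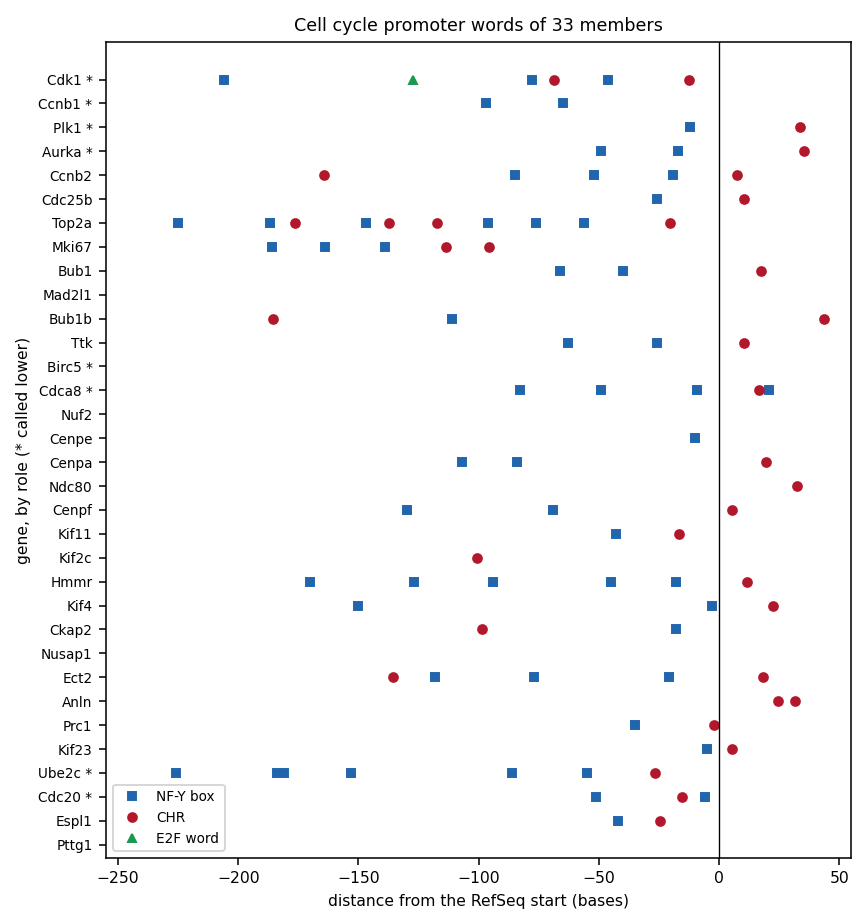
Places of the promoter words in the windows of the 33 matched genes (rows, by role, an asterisk for genes called lower), as distance from the RefSeq start in bases on the x axis, with CHR words as circles, CCAAT (NF-Y) boxes as squares and the E2F word as a triangle. CHR words lie within 60 bases of the start in 23 genes, and the E2F word is in Cdk1 alone among the 33.

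With phytic acid, 10 of the 40 genes were lower and none was higher, in limma on log2(FPKM + 1) at a Benjamini-Hochberg adjusted p under 0.05 over 12165 tested genes. The genes that fell were Cdk1, Ccnb1, Ccna2, Plk1 and Aurka (entry into mitosis), Birc5, Aurkb and Cdca8 (the chromosomal passenger complex) and Ube2c and Cdc20 (the anaphase-promoting complex and its activator). The 10 made up 25% of the members, while 11.6% of all tested genes were called lower and 14.2% higher. The median log2 fold change (phytic acid group minus MC903) was -0.37 over the members and 0.05 over all tested genes. At an unchanged call rule, the count of members that fell ranged from 4 to 11 when each library was left out in turn. It was 2 when the libraries were centred on basal keratinocyte genes, which is 5% of the members beside 4.51% of all tested genes called lower in that analysis, a share near the background. All 40 passed the filter (4 or more libraries at an FPKM of 1 or above), and 36 reached that level in all 8. The fold change was below 0 for 37 members as deposited and for 32 after centring on basal keratinocyte genes; Kif23, Espl1 and Pttg1 were above 0 in both. In 12 members the groups did not overlap, each with the phytic acid libraries lower, against 13.0% of all tested genes; these are the 10 called ones, Mad2l1 and Kif20a.

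**Figure D2:**
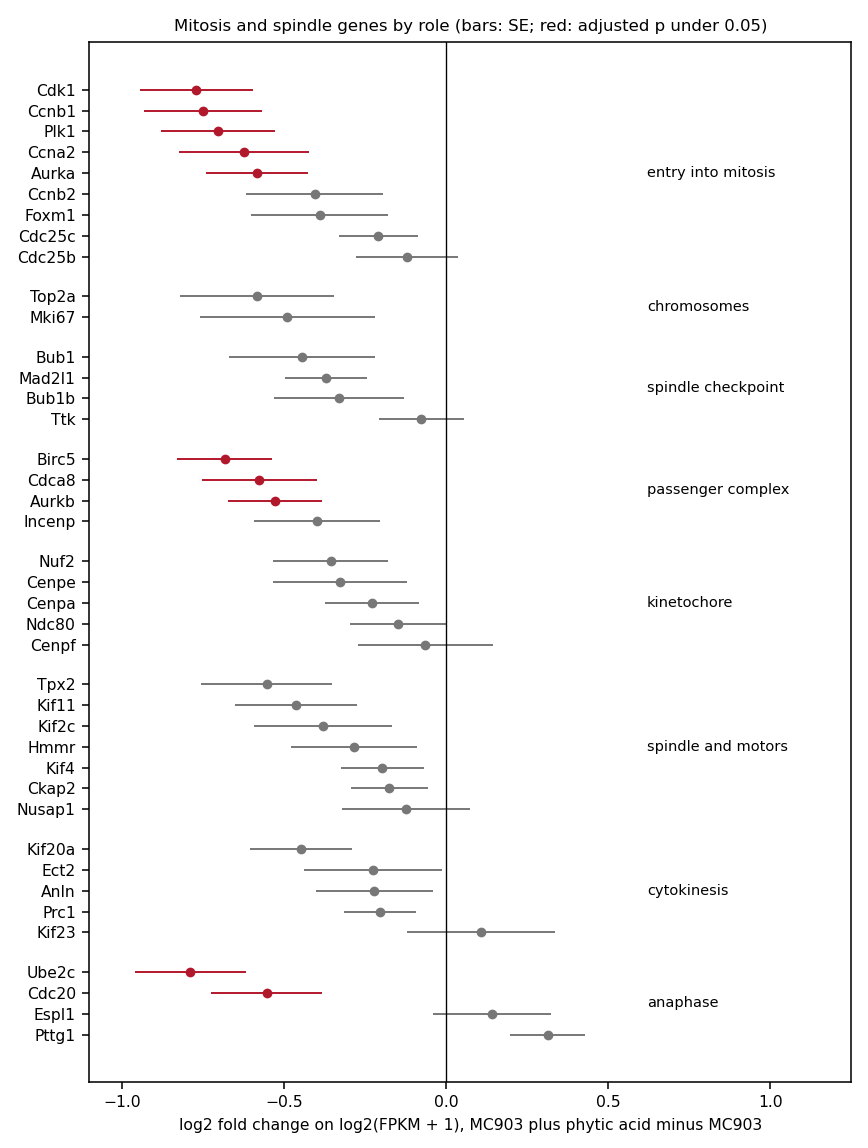
Log2 fold change of each of the 40 genes (x axis, log2(FPKM + 1) scale, MC903 plus phytic acid minus MC903), grouped by role, with bars of 1 SE on each side. Red points mark the 10 genes called lower at an adjusted p under 0.05, which lie between -0.79 for Ube2c and -0.53 for Aurkb.

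Entry into mitosis held 5 of the 10 genes that fell, out of 9 measured. Cdk1 (chr10:69335146-69352938, minus strand, GRCm38), the kinase that drives entry, read 6.51, 6.44, 6.52 and 8.83 FPKM in MC903 replicates 1 to 4 and 3.58, 4.07, 2.46 and 5.10 FPKM in the phytic acid replicates 1 to 4. Every phytic acid library was below every MC903 library, although MC903 replicate 4 stood well above the other 3. The mean FPKM went from 7.08 ± 1.17 to 3.80 ± 1.10 (SD, n = 4 each), a log2 fold change of -0.77 ± 0.17 (SE) with a limma adjusted p of 0.0121. Cdk1 stayed called in all 21 alternative analyses.

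Ccnb1 (chr13:100778650-100786570), cyclin B1, the partner that activates CDK1, read 11.5, 12.0, 12.5 and 15.2 FPKM with MC903 and 7.61, 7.95, 4.56 and 9.43 FPKM with phytic acid. The groups were apart, with a log2 fold change of -0.75 ± 0.18 and a limma adjusted p of 0.0162; after centring on basal keratinocyte genes the adjusted p was 0.0501. Ccna2 (chr3:36564865-36572150), cyclin A2, which acts in S phase and at the start of mitosis, read 8.45, 9.22, 13.1 and 11.5 FPKM against 7.41, 6.89, 3.98 and 8.13 FPKM. Its groups were separated by a narrow gap, and its log2 fold change of -0.62 ± 0.20 had a limma adjusted p of 0.0474. Leaving out any library other than phytic acid replicate 4 ended the call for Ccna2, with adjusted p-values of up to 0.112, the highest without MC903 replicate 4.

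Plk1 (chr7:122159439-122169873), the Polo kinase that promotes CDK1 activation and later spindle and cytokinesis steps, read 5.80, 4.13, 6.17 and 6.99 FPKM with MC903 and 3.47, 3.53, 2.04 and 3.62 FPKM with phytic acid. Phytic acid replicates 1, 2 and 4 lay close together and replicate 3 lay far below them. The log2 fold change was -0.70 ± 0.18 (limma adjusted p 0.0177), and the adjusted p was 0.0513 without MC903 replicate 4. Aurka (chr2:172356190-172370535), Aurora A, the kinase of centrosomes and spindle poles, read 4.44, 4.65, 5.24 and 5.89 FPKM against 3.67, 3.21, 1.94 and 3.55 FPKM. It did not overlap between groups, with a log2 fold change of -0.58 ± 0.16 (limma adjusted p 0.0245), or 0.0700 without MC903 replicate 4.

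The other 4 entry genes were not called and their groups overlapped. Ccnb2, cyclin B2, averaged 12.2 ± 2.18 FPKM with MC903 and 9.21 ± 2.74 FPKM with phytic acid, and Foxm1, the transcription factor of late cell cycle genes, 3.14 ± 0.754 and 2.22 ± 0.903 FPKM. The 2 CDC25 phosphatases, which remove the inhibitory phosphates from CDK1, stood close: Cdc25b at 7.57 ± 0.674 and 7.02 ± 1.64 FPKM, Cdc25c at 1.64 ± 0.222 and 1.29 ± 0.286 FPKM. Cdc25b read 8.01, 7.70 and 7.81 FPKM in phytic acid replicates 1, 2 and 4, above 3 of the 4 MC903 libraries, and 4.56 FPKM in replicate 3.

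Of the 4 chromosomal passenger genes, whose complex corrects faulty attachments and guides cytokinesis, 3 fell. Birc5 (chr11:117849251-117855743), survivin, read 5.11, 5.24, 5.33 and 6.47 FPKM with MC903 and 3.35, 3.24, 2.05 and 3.82 FPKM with phytic acid. The lowest MC903 library was above the highest phytic acid library, and the log2 fold change was -0.68 ± 0.15 with a limma adjusted p of 0.00985. Birc5 remained called when any single library was left out, with adjusted p-values of 0.0113 to 0.0310, and was not called after centring on basal keratinocyte genes (0.0657).

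Aurkb (chr11:69045647-69051664), Aurora B, the kinase of the complex, read 4.65, 4.15, 5.96 and 5.26 FPKM against 3.38, 3.68, 2.23 and 3.44 FPKM. Its log2 fold change was -0.53 ± 0.14 (limma adjusted p 0.0257), and the call was lost without MC903 replicate 1 (0.0541) and without MC903 replicate 4 (0.0672). Cdca8 (chr4:124918465-124939311), borealin, read 3.38, 3.61, 4.46 and 4.81 FPKM against 2.82, 2.51, 1.37 and 3.07 FPKM. The groups of Cdca8 were apart, at a log2 fold change of -0.58 ± 0.18 (limma adjusted p 0.0399), but only the omission of phytic acid replicate 4 left it called, and the adjusted p reached 0.106 without MC903 replicate 4. The remaining gene, Incenp, the scaffold of the complex, averaged 7.01 ± 1.53 and 5.11 ± 1.37 FPKM, overlapped between groups and was not called (limma adjusted p 0.160).

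Among the 4 genes of the step into anaphase, 2 fell and the other 2 had fold changes above 0 without a call. Ube2c (chr2:164769898-164778822), the ubiquitin-conjugating enzyme of the anaphase-promoting complex, had the largest fall of the 40 as deposited. It read 7.32, 7.79, 8.81 and 8.79 FPKM with MC903 and 4.96, 4.13, 2.78 and 5.84 FPKM with phytic acid. The log2 fold change was -0.79 ± 0.17 with a limma adjusted p of 0.00985, and Ube2c was called in all 21 alternatives. Ube2c shares 592 exon bases, 22.8% of its exon length, with Tnnc2, a muscle troponin gene on the opposite strand. Tnnc2 was listed at 0 to 0.424 FPKM in the 8 libraries, in a tissue where the skeletal muscle markers together reached 3911 to 10559 FPKM; the sources used here do not give how reads of the shared exon were assigned.

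Cdc20 (chr4:118432901-118437352), the activator of the complex, read 11.3, 13.5, 14.6 and 14.3 FPKM with MC903 and 8.72, 10.9, 5.91 and 10.4 FPKM with phytic acid. Only a small gap separated MC903 replicate 1 from phytic acid replicate 2, and the log2 fold change was -0.55 ± 0.17 (limma adjusted p 0.0401). The call of Cdc20 was lost in 5 of the 8 analyses that left out a library, with adjusted p-values of up to 0.0970, the highest again without MC903 replicate 4. Pttg1, securin, the inhibitor of separase, ran against the rest. It read 16.7, 14.3, 14.0 and 11.2 FPKM with MC903 and 17.7, 16.5, 18.5 and 17.6 FPKM with phytic acid, where replicate 3 was the highest library of the 8. The log2 fold change of 0.31 ± 0.12 was not called (limma adjusted p 0.0762), while without MC903 replicate 1, the highest of its group, the adjusted p was 0.0468. Espl1, separase, which cuts cohesin, was the lowest of the 40, at 0.754 to 1.83 FPKM with MC903 and 0.790 to 1.69 FPKM with phytic acid.

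**Figure D3:**
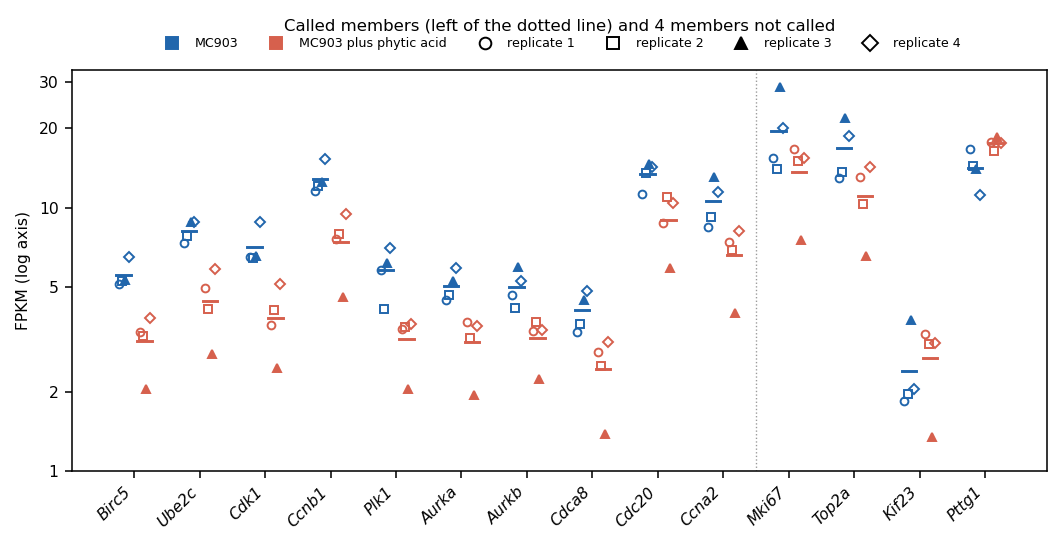
FPKM (y axis, log scale) in each library of the 10 genes called lower (left of the dotted line) and of Mki67, Top2a, Kif23 and Pttg1, with blue for MC903, red for MC903 plus phytic acid, a marker shape for each replicate and a bar at the group mean. In the 10 called genes no phytic acid library reaches the lowest MC903 library, in the other 4 the groups overlap, and phytic acid replicate 3 is the lowest point of every gene but Pttg1.

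The proliferation markers of the chromosomes were not called. Mki67, which coats mitotic chromosomes and is the antigen stained as Ki-67, read 15.5, 13.9, 28.6 and 19.99 FPKM with MC903 and 16.7, 15.0, 7.53 and 15.4 FPKM with phytic acid. Phytic acid replicates 1, 2 and 4 lay near MC903 replicates 1 and 2, MC903 replicates 3 and 4 lay above all of these, and phytic acid replicate 3 lay far below. Its log2 fold change was -0.49 ± 0.27 (limma adjusted p 0.213). Top2a, the topoisomerase that untangles sister chromatids, read 12.9, 13.6, 21.9 and 18.8 FPKM against 13.1, 10.3, 6.54 and 14.3 FPKM, with a log2 fold change of -0.58 ± 0.24 (limma adjusted p 0.10). Its size of change was like that of Aurka and Cdca8, and its spread within the groups was wider.

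None of the 4 spindle checkpoint genes was called. Mad2l1, the inhibitor of CDC20, came closest: 3.03, 3.15, 3.36 and 3.44 FPKM with MC903 and 2.33, 2.25, 1.68 and 3.0 FPKM with phytic acid, without overlap (limma adjusted p 0.0570). The kinase Bub1 averaged 3.38 ± 0.932 and 2.27 ± 0.903 FPKM, Bub1b, the BubR1 protein of the checkpoint complex, 6.34 ± 1.47 and 4.89 ± 1.33 FPKM, and the kinase Ttk (MPS1) 3.61 ± 0.685 and 3.36 ± 0.502 FPKM. These 3 overlapped between groups.

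At the kinetochore none of 5 genes was called, and all 5 overlapped between groups. Cenpa, the histone that marks the centromere, averaged 4.97 ± 0.644 FPKM with MC903 and 4.13 ± 0.871 FPKM with phytic acid, and Cenpe, the kinetochore motor, 3.62 ± 0.880 and 2.73 ± 0.917 FPKM. Cenpf, a kinetochore and nuclear matrix protein, stood at 2.40 ± 0.736 and 2.27 ± 0.757 FPKM. The microtubule-binding pair Ndc80 and Nuf2 stood at 1.63 ± 0.257 and 1.40 ± 0.434 FPKM, and at 2.15 ± 0.336 and 1.51 ± 0.617 FPKM.

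The 7 genes of motors and spindle assembly were not called either, with log2 fold changes of -0.55 to -0.12. The farthest from 0 was Tpx2, the activator of Aurora A on the spindle, at 7.41 ± 1.39 and 4.83 ± 1.46 FPKM (limma adjusted p 0.0712), then Kif11, the motor that pushes the poles apart, at 6.99 ± 1.29 and 4.88 ± 1.36 FPKM. Kif2c, which takes microtubules apart at the kinetochore, averaged 3.5 ± 0.748 and 2.53 ± 0.968 FPKM, Hmmr, a spindle assembly factor, 3.87 ± 0.591 and 3.09 ± 1.07 FPKM, and the chromosome-borne motor Kif4 3.37 ± 0.602 and 2.80 ± 0.368 FPKM. The microtubule-binding proteins Nusap1 and Ckap2 were nearest to 0, at 7.43 ± 1.45 and 6.87 ± 2.04 FPKM, and at 8.97 ± 0.312 and 7.92 ± 1.41 FPKM.

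None of 5 cytokinesis genes was called. Kif20a, the motor that carries regulators to the midzone, averaged 4.21 ± 0.733 FPKM with MC903 and 2.84 ± 0.658 FPKM with phytic acid without overlap (limma adjusted p 0.0619). Prc1, the bundler of midzone microtubules, averaged 4.96 ± 0.340 and 4.20 ± 0.608 FPKM, Anln, the scaffold of the contractile ring, 5.72 ± 0.887 and 4.86 ± 1.37 FPKM, and Ect2, which activates RhoA at the furrow, 5.0 ± 0.559 and 4.32 ± 1.59 FPKM. Kif23, the motor of centralspindlin, read 1.84, 1.95, 3.75 and 2.05 FPKM with MC903 and 3.31, 3.02, 1.34 and 3.05 FPKM with phytic acid. Both libraries numbered 3 lay apart from their groups, in opposite directions, for Kif23.

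Phytic acid replicate 3 was the lowest of all 8 libraries for 38 of the 40 members, while 16.7% of all tested genes were lowest there. The highest library was MC903 replicate 3 for 22 members and MC903 replicate 4 for 16, against 16.1% and 16.8% of all tested genes. The median member was 0.70 below its own mean in phytic acid replicate 3 on the log2 scale, a deviation of -0.70, and deviated by 0.39 in MC903 replicate 3 and by 0.27 in MC903 replicate 4. In the other 5 libraries the median deviation was between -0.09 and 0.07. Over all tested genes it was between -0.12 and 0.06 in every library. Phytic acid replicate 3 lay below every MC903 library for 38 members, and for 11 of these none of the other 3 phytic acid libraries did. The summed FPKM of the 40 was 227, 224, 297 and 274 with MC903 and 211, 202, 127 and 225 with phytic acid, so that phytic acid replicate 4 stood above MC903 replicate 2.

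**Figure D4:**
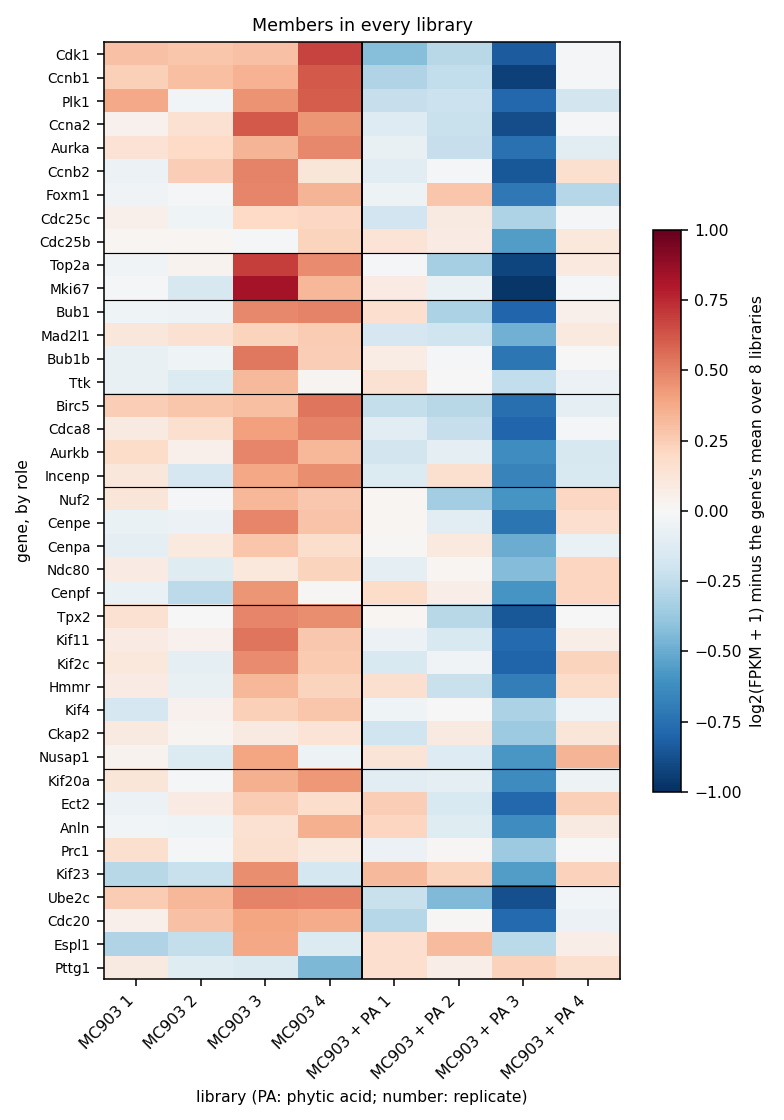
Deviation of each of the 40 genes from its own mean over the 8 libraries (colour, log2(FPKM + 1) scale), genes in rows by role and libraries in columns. Phytic acid replicate 3 is the lowest library for 38 genes, MC903 replicate 3 the highest for 22 and MC903 replicate 4 for 16.

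Without phytic acid replicate 3, 7 members were lower (17.5% beside 9.08% of all tested genes) and the median log2 fold change was -0.20. Without both libraries numbered 3, an analysis added after the data were seen, 6 were lower (15% beside 11.6% of all tested genes): Ube2c, Cdk1, Ccnb1, Birc5, Plk1 and Aurka, with log2 fold changes of -0.59, -0.65, -0.57, -0.56, -0.53 and -0.41. In that analysis 2 of the 40 members were higher, Kif23 (log2 fold change 0.49, limma adjusted p 0.00831) and Espl1 (0.41, 0.0261). Among all 12165 tested genes 2655 were called higher there, a larger share. The median over the members was -0.10. Without MC903 replicate 4, 4 remained lower, Birc5, Ube2c, Cdk1 and Ccnb1, which is 10% of the members beside 7.89% of all tested genes.

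Markers of other cells moved with the libraries and groups. For the counts below, 11.6% of all tested genes were called lower and 14.2% higher. Of the hair matrix markers, 11 were in the table, and they summed to 2039 FPKM in MC903 replicate 3 and to 9.62 to 50.8 FPKM in the other 7 libraries, with Krt71, the inner root sheath keratin, at 1373 FPKM. That sum was 18.5 FPKM in MC903 replicate 4, the other library with many of the highest member values. Of the 3 hair matrix markers tested, 2 fell: Hoxc13, a regulator of hair keratins, from 10.9 to 26.1 FPKM in the MC903 libraries to 1.85 to 3.17 FPKM with phytic acid (limma adjusted p 0.000460), and Padi3, a deiminase of the hair shaft and root sheath, from 3.10 to 49.0 FPKM to 0.199 to 0.515 FPKM (0.0212). Skeletal muscle markers summed to 3911 to 4733 FPKM with MC903 and 8877 to 10559 FPKM with phytic acid, and 12 of 13 tested ones rose. Adipocyte markers summed to 214 to 539 and 586 to 1075 FPKM, with 3 of 7 higher. Basal keratinocyte markers summed to 4418 to 8030 FPKM with MC903 and 2661 to 3141 FPKM with phytic acid, where 3 of 12 fell and 2 rose. Krt14, a large part of that sum, fell from a mean of 5275 to 1357 FPKM. Krt15 rose from 119 to 459 FPKM and Dst rose as well, and the median log2 fold change of the 12 was -0.13. The wound keratins Krt6a, Krt6b, Krt16 and Krt17 summed to 3316 to 6734 and 740 to 1193 FPKM, and 3 of these 4 fell. T cell markers summed to 3.39 to 6.80 and 8.59 to 20.8 FPKM, with 3 of 4 tested ones higher. Dendritic and Langerhans cell markers summed to 112 to 289 and 564 to 1277 FPKM, and 6 of 6 tested ones rose. Suprabasal keratinocyte markers summed to 4392 to 7201 and 9209 to 11762 FPKM with 5 of 7 higher, and 3 of 8 macrophage markers were higher. None of 7 genes of RNA quality and dissection stress was called. Their sum was 21252 FPKM in phytic acid replicate 3, the highest of the 8 libraries, and 12416 to 17866 FPKM in the other 7. The mitochondrial gene mt-Co1 made up most of it, with 14796 FPKM there and 7556 to 12608 FPKM in the other 7. The stress gene Hspa1a was not highest there: it stood at 6.59 FPKM, against 5.44 to 10.3 FPKM elsewhere, in phytic acid replicate 3. That library also had the lowest T cell and dendritic cell sums of its group, at 8.59 and 564 FPKM. The part of these markers and of RNA quality in the fall of the mitosis genes was not tested.

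Scaling bore on the count of members. Centring each library on the mean of 12 basal keratinocyte genes moved the median of all tested genes from 0.05 to 0.22 and that of the members from -0.37 to -0.20, and Ube2c (adjusted p 0.0456) and Cdk1 (0.0381) were the 2 members still called by limma. These are 5% of the members, near the 4.51% of all tested genes called lower with that centring. The excess of member calls seen as deposited was thus absent there. Centring shifts all genes of a library alike, so the member median still lay below that of all tested genes. The reference genes changed as well: 3 of the 12 were called lower and 2 higher as deposited. With that centring 76.8% of all calls were higher, against 54.9% as deposited. Median-of-ratios scaling gave 16 members lower (40% beside 15.0% of all tested genes) with 44.6% of calls higher, and quantile normalization gave 17 (42.5% beside 13.2%). On the recovered reads, limma voom called 11 members lower (27.5% beside 11.6% of all tested genes), the same 10 and Mad2l1.

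**Figure D5:**
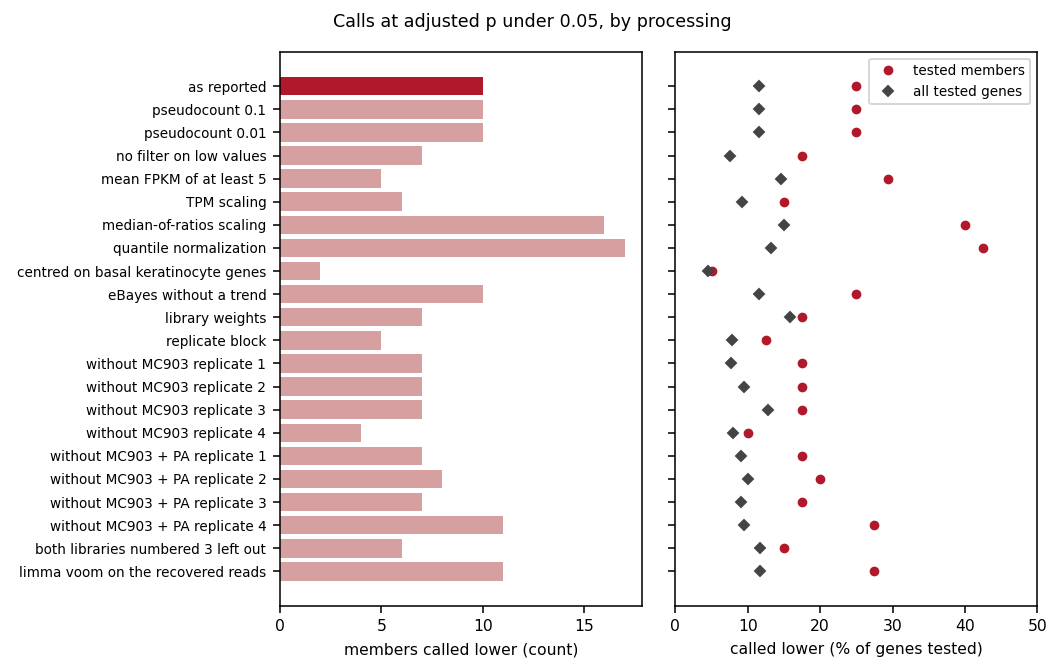
Number of the 40 genes called lower (left, bars from 0) and the share of tested members and of all tested genes called lower (right, %), for the reported analysis and each alternative. The count runs from 2 after centring on basal keratinocyte genes to 17 after quantile normalization, and the members' share beside that of all tested genes is 25% and 11.6% as reported, 42.5% and 13.2% after quantile normalization, and 5% and 4.51% after centring.

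Exon length and shared exons were looked at because FPKM depends on both. The 10 genes that fell had exon lengths of 1868 to 5177 bases, and 17 members were longer. That none of these 17 was called follows from taking the longest called member as the limit, so it is no test of length. Across the 40 genes, which share their libraries, the Spearman correlation of exon length with log2 fold change was 0.33, and across 11949 tested genes with a length it was 0.02. Exons of 13 members overlapped those of another gene, in 6 over more than 10% of their length. Ccna2 shared 12.5% with Exosc9 and Kif20a 29.3% with Cdc23, in each case on the opposite strand. Exosc9 stood at 4.51 to 7.73 FPKM and Cdc23 at 2.86 to 4.47 FPKM. Kif4 shared 15.1% with Pdzd11, at 11.6 to 16.5 FPKM, also on the opposite strand. Cdc20 shared 2.84% with Elovl1, opposite to it, at 56.4 to 66.1 FPKM with MC903 and 100 to 133 FPKM with phytic acid. Since the sources used here do not give the strand setting, the values of these members are uncertain to that extent.

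Lists of other mitosis genes, from the same libraries, were read the same way. Of 113 tested genes on 5 lists, 26 were lower (23.0%) and 2 higher. Over all tested genes 11.6% were called lower and 14.2% higher. Other kinetochore and centromere genes had 8 of 31 lower, and their log2 fold changes had a median of -0.29; among them Sgo1, the protector of centromeric cohesion, went from 4.04 ± 0.689 to 1.99 ± 0.587 FPKM (limma adjusted p 0.00865), Mad1l1, the partner of MAD2, from 4.88 ± 0.765 to 2.84 ± 0.516 FPKM, and Cenpm from 2.17 ± 0.268 to 0.98 ± 0.485 FPKM. Condensin and cohesion genes had 5 of 20 lower (median -0.12), led by the condensin subunits Ncapg2, Ncaph and Smc2, the last from 10.1 ± 1.46 to 6.10 ± 1.70 FPKM. Other spindle and cytokinesis genes had 5 of 25 lower (median -0.29), with Gtse1, Tacc3 and Depdc1a first by p.

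Other regulators of the G2 to M transition had 7 of 22 lower (31.8%) and 2 higher, with a median of -0.18. Among all tested genes the shares were 11.6% lower and 14.2% higher. Cks1b, the small subunit that binds CDK1, fell from 27.7 ± 5.59 to 12.0 ± 2.39 FPKM (log2 fold change -1.14 ± 0.17, limma adjusted p 0.00179), Trip13, the ATPase that takes the MAD2 complex apart, from 3.78 ± 0.845 to 1.47 ± 0.224 FPKM (-0.94 ± 0.14, 0.00160) and Mybl2, B-MYB, from 3.13 ± 0.646 to 1.19 ± 0.352 FPKM (-0.91 ± 0.16, 0.00364). These 3 changed by more than any of the 40 members. The 2 that rose, named after their values were seen, were Wee1, the kinase that keeps CDK1 inactive, from 6.70 ± 0.749 to 10.3 ± 1.85 FPKM (limma adjusted p 0.0159), and Lin52, a subunit of DREAM, from 3.84 ± 0.346 to 5.43 ± 0.277 FPKM (0.0111). Lin54, another DREAM subunit also named after its values were seen, was among the 7 lower. It went from 9.23 ± 1.04 to 7.07 ± 0.795 FPKM (limma adjusted p 0.0495). In the core of the anaphase-promoting complex, 1 of 15 genes was lower (6.67% beside 11.6% of all tested genes), and the median was -0.03. The gene was the activator Fzr1, from 5.91 ± 0.251 to 4.64 ± 0.434 FPKM (limma adjusted p 0.0399).

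Genes of DNA replication, the step before mitosis, are given beside the members. Of 52 tested, 29 were lower (55.8% beside 11.6% of all tested genes) and none higher. The median over the list was -0.44 on the log2 scale. Mcm5 and Mcm2, subunits of the replicative helicase, went from 16.3 ± 3.15 to 4.63 ± 1.22 FPKM (log2 fold change -1.63 ± 0.17, limma adjusted p 0.000486) and from 5.02 ± 0.637 to 2.06 ± 0.555 FPKM, and Gmnn, geminin, the inhibitor of origin licensing, from 14.9 ± 3.15 to 6.11 ± 0.787 FPKM. The mean log2(FPKM + 1) of the list was 2.63, 2.61, 2.73 and 2.86 with MC903 and 2.27, 2.20, 2.05 and 2.38 with phytic acid, so its groups were apart. That of the 40 mitosis genes was 2.54, 2.51, 2.85 and 2.77 against 2.45, 2.41, 1.85 and 2.53, which overlapped. Without both libraries numbered 3, 25 of the 52 replication genes were lower, beside 11.6% of all tested genes. After centring on basal keratinocyte genes 13 of the 52 were lower, beside 4.51% of all tested genes. Whether the 2 lists differ in their change was not tested.

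Of 25 tested genes of G1 and of cell cycle arrest, 7 were lower (28%) and 3 higher (median -0.14). Among all tested genes 11.6% were called lower and 14.2% higher. Gadd45a, a stress gene that can halt entry into mitosis, fell from 12.2 ± 1.97 to 4.95 ± 0.715 FPKM, and Myc, a driver of growth and division, from 28.5 ± 4.51 to 14.6 ± 2.03 FPKM (limma adjusted p 0.00191). Ccng1, cyclin G1, a target of p53, rose from 45.1 ± 3.55 to 92.5 ± 24.4 FPKM (limma adjusted p 0.00396).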

How the data were processed

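Skin RNA of 8 libraries was sequenced, per the labels' protocols after TRIzol extraction and a SMARTER mRNA-seq kit. The authors deposited FPKM, for every gene in each library. Per the submitters' processing notes, cutadapt, HISAT2, TopHat2 and DESeq were used with mm10, without roles; the sources used here give neither annotation nor strand setting. Unnamed rows, holding 0.016% to 0.0238% of a library's FPKM, were dropped. FPKM times GENCODE exon length on GRCm38 gave whole reads, within 0.05, for 17509 of 17980 genes (97.4%), and the library totals.

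Genes reaching an FPKM of 1 in 4 or more libraries (12165) entered limma 3.58.1 (R 4.3.3) on log2(FPKM + 1), with a mean-variance trend, group as the factor and two-sided Benjamini-Hochberg adjusted p under 0.05 as a call; the pseudocount understates the change of low genes. The procedure was tested on simulated data. The members and lists were chosen with earlier results of these data known. All 40 members are accounted for; the called ones, Mki67 and Top2a get every library, and each pathway list its 3 called genes of smallest p. The alternatives were pseudocounts, filters, scalings, spread models, a replicate block and leaving out libraries; voom on reads and leaving out both libraries numbered 3 were added after seeing the data.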

Additional observations from a re-analysis of the deposited data

Results flagged for a closer look

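In each group of 4 libraries, a value was singled out where the gap to its nearest neighbour, as a share of the group's range, was above Dixon's critical value for 4 samples. Chance does this in about 1 group in 20, and among the 80 groups of member values it occurred in 10. The 80 groups come from the same 8 libraries and are not independent, so the count cannot be set against chance. Phytic acid replicate 3 was the low library in 6 of the 10. There Cdc25b stood at 4.56 FPKM (7.70 to 8.01 in the other 3), Plk1 at 2.04 (3.47 to 3.62), Bub1b at 2.91 (5.36 to 5.81), Kif4 at 2.25 (2.92 to 3.05), Kif20a at 1.86 (3.10 to 3.27) and Kif23 at 1.34 (3.02 to 3.31). MC903 replicate 4 was the high library for Cdk1 at 8.83 FPKM (6.44 to 6.52), Cdc25b at 8.57 (7.09 to 7.33) and Birc5 at 6.47 (5.11 to 5.33). MC903 replicate 3 was the high library for Kif23 at 3.75 FPKM (1.84 to 2.05) and for the summed hair matrix markers at 2039 FPKM (18.5 to 50.8).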

How the results depend on the processing

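As reported, 10 members were lower, 0 higher, 26 genes of the other mitosis lists lower and 3134 of all genes called. Other pseudocounts and eBayes without a trend left 10 members lower. In the order members lower and other list genes lower, a mean FPKM of at least 5 gave 5 (of 17 tested) and 8, TPM 6 and 15, median-of-ratios 16 and 41, quantile normalization 17 and 45, basal centring 2 and 5, and both libraries numbered 3 left out 6 and 16, with 2 members higher. With basal centring these are 5% of the members and 4.42% of the other list genes, near the 4.51% of all tested genes called lower. With both libraries numbered 3 left out, 2655 of all 12165 tested genes were called higher, a larger share than that of the members. Without a filter 7 members (17.5% beside 7.49% of all tested genes) and 17 other list genes were lower. The members' share was 29.4% beside 14.6% of all tested genes for a mean FPKM of at least 5, and 15% beside 9.20% for TPM. Library weights gave 7 members lower (17.5% beside 15.9% of all tested genes) and 26 other list genes lower, and called 4796 genes in all. Leaving out 1 library gave 4 to 11 members lower, 0 to 1 higher, 11 to 26 other list genes lower and 2013 to 3979 genes in all. The 4 were 10% beside 7.89% of all tested genes, without MC903 replicate 4. The 11 were 27.5% beside 9.47%, without phytic acid replicate 4.

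Same-numbered libraries correlated at -0.28, -0.10, -0.29 and 0.23 in their deviations, and only those numbered 4 correlated best with their own number. So few libraries cannot settle whether the numbers mark pairs, and the labels do not say. With the replicate number as a block, 5 members (12.5% beside 7.79% of all tested genes) and 12 other list genes were lower and 2046 genes were called.

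Over 817 values of a member in an alternative, 732 kept direction and side of the threshold, 50 lost a call, 18 gained one and 17 changed sign. None of those 17 was a called member. Log2 fold changes turned above 0 for Cdc25b (0.054), Ttk (0.098), Cenpf (0.11), Ndc80 (0.027) and Nusap1 (0.050) with basal centring; Ttk (0.0072) and Cenpf (0.058) with library weights; Ttk (0.021) and Cenpf (0.073) without MC903 replicate 3; Cdc25b (0.047), Cenpf (0.12) and Nusap1 (0.050) without phytic acid replicate 3; and Cdc25b (0.020), Ttk (0.091), Cenpf (0.26), Nusap1 (0.16) and Ect2 (0.045) without both libraries numbered 3. Over the fits without 1 library the lowest values were -0.19 for Cdc25b, -0.14 for Ttk, -0.16 for Cenpf and -0.26 for Nusap1. The cause was not tested. Depth limited little here, with at least 193 reads behind every member value.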
